A study of Cucumis sativus with 4 samples.

Results

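In young cucumber fruits (Cucumis sativus), 28 of 20000 listed genes, or 0.14%, were read at a low level in the long-fruited line 408 and were close to absent in the short-fruited line 409. The unit was RPM, which states how many of every 1000000 reads assigned to the listed genes fell on a gene, with no correction for gene length. The 28 genes were chosen by these values, as those at 2 RPM or more and under 10 RPM in both 408 libraries and at no more than 0.5 RPM in both 409 libraries. The levels in both lines therefore made the choice, and the difference between the lines is given as a description that supports nothing further.

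Line 408 bears long fruits and line 409, its near-isogenic line, bears short fruits. Both were greenhouse plants with no treatment named in the labels. Each line had 2 biological samples, and for each of them 3 to 5 fruits from different plants, 2 to 4 cm long, were combined. Sampling was simultaneous for both lines. RNA was poly(A)-selected and sequenced with a strand-keeping kit. The labels name neither the chromosome segments at which the lines differ nor an allele, and the contribution of single plants cannot be told apart within a pool. Nothing beyond the word biological says how the pools were kept apart, so the spread between 2 libraries of a line may be partly technical.

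A young cucumber fruit gains length first mainly through cell division around flowering and later mainly through cell expansion. Near-isogenic lines are bred to share most of their genome and to differ in the trait under study and in the segments that were carried along with it. In RNA from whole fruits a transcript of a few RPM can come from many cells at a low level or from a few cells at a high level, and fewer cells of a type and less RNA per cell cannot be told apart. None of the 20000 IDs matched the reference table of 23999 cucumber genes (assembly Cucumber_9930_V3). The IDs were therefore not paired with gene names here, the fruit label was not checked against marker genes, and the 28 genes are described by ID, level and place in the ID order.

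The libraries were estimated to hold 12496000 and 13808000 reads of listed genes in 408 replicates 1 and 2, and 13753000 and 12256000 in 409 replicates 1 and 2. At these depths 1 read was worth 0.0724 to 0.0816 RPM. Replicate 2 was the deeper library in line 408 and replicate 1 the deeper library in line 409.

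In line 408 the 28 genes lay in the lower part of the range that the choice allowed. They ran from 2.1 RPM through a median of 3.1 to 4.7 RPM in 408 replicate 1, and from 2.0 RPM through a median of 4.6 to 8.7 RPM in 408 replicate 2. Their mean over the 408 libraries was under 3 RPM for 8 genes, from 3 to under 5 RPM for 15 genes and at least 5 RPM for 5 genes. In line 409 they had a median of 0.25 RPM in replicate 1 and of 0.2 RPM in replicate 2, with highest values of 0.5 and 0.4 RPM. Added together, they held 86.3 and 129 RPM in the 408 replicates, against 7.1 and 4.6 RPM in those of line 409. Even in 408 replicate 2 this was 0.0129% of the library.

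**Figure D1:**
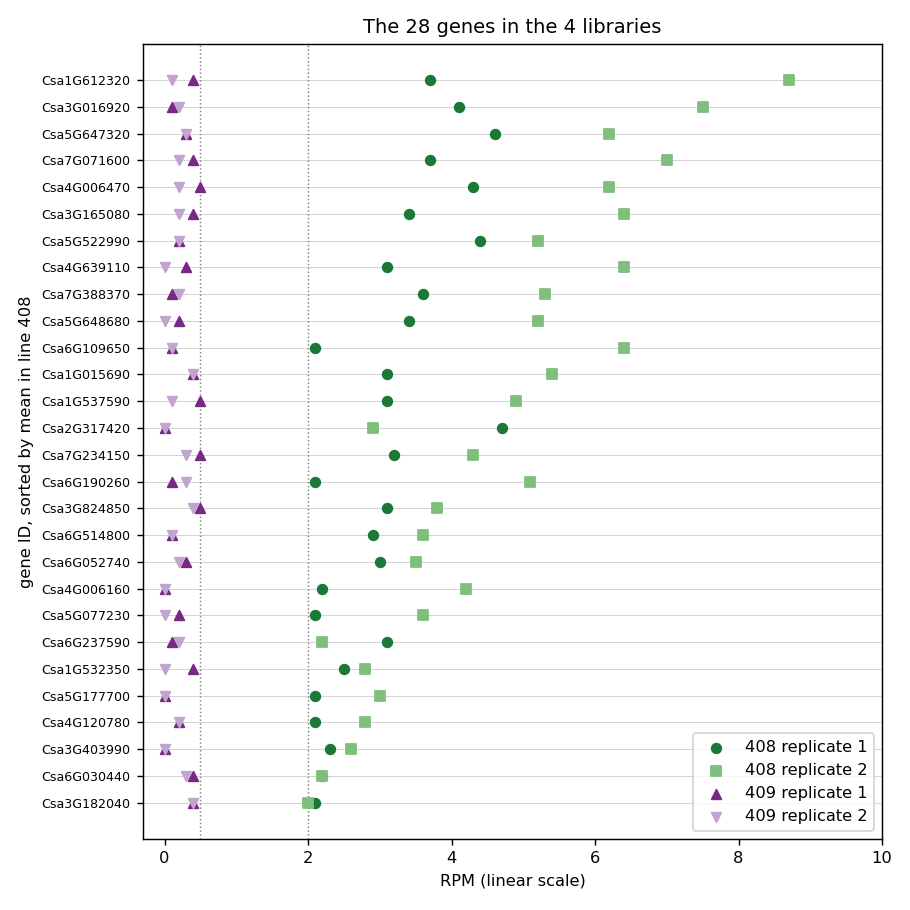
RPM (linear x axis) of the 28 genes in each library, 1 row per gene ID, sorted by the mean in line 408. Dotted lines mark 0.5 and 2 RPM, the limits of the choice, and the 408 replicate 2 points spread up to 8.7 RPM while no 408 replicate 1 point passes 4.7 RPM.

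The gene with the highest mean in line 408 was Csa1G612320. It had 3.7 and 8.7 RPM in the 408 replicates, against 0.4 and 0.1 RPM in those of 409, which gives means of 6.20 ± 3.54 RPM for 408 and 0.25 ± 0.212 RPM for 409 (± SD over n = 2 libraries). Its 408 values differed 2.35-fold from each other, so its level in the long-fruited line is poorly fixed, and its ratio of means of 24.8 had a 95% counting interval of 11.1 to 75.6. Csa3G016920 had 4.1 and 7.5 RPM in the 408 replicates, against 0.1 and 0.2 RPM in those of line 409, a ratio of means of 38.7 (interval 12.8 to 250.0). It was close to absent in both short-fruit pools, and the wide interval reflects the 3 to 5 reads that its 409 values stand for.

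The next 3 genes by level had 408 replicates that differed 1.35- to 1.89-fold. Csa5G647320 had 4.6 and 6.2 RPM in line 408 and 0.3 RPM in each 409 replicate, a ratio of means of 18.0 (interval 8.67 to 42.0). Csa7G071600 had 3.7 and 7.0 RPM in line 408 and 0.4 and 0.2 RPM in line 409, a ratio of 17.8 (7.99 to 51.1). Csa4G006470 had 4.3 and 6.2 RPM in line 408 and 0.5 and 0.2 RPM in line 409, a ratio of 15.0 (7.25 to 34.3). These 3 ratios lay inside one another's intervals and could not be ranked at this depth.

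At the low end, Csa3G182040 had 2.1 and 2.0 RPM in the 408 replicates and 0.4 RPM in each 409 replicate. Its ratio of means of 5.13 was the lowest of the 28, with an interval of 2.46 to 11.8. Csa6G030440 had 2.2 RPM in each 408 replicate and 0.4 and 0.3 RPM in the 409 replicates, a ratio of 6.29 (2.85 to 14.9). These were the lowest ratios of the group, and the 409 values of the genes stand for 10 to 11 and 9 to 10 reads over both 409 libraries. Csa4G120780 had 2.1 and 2.8 RPM in line 408 and 0.2 RPM in each 409 replicate, a ratio of 12.3 (4.59 to 40.9).

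Of the 28 genes, 4 were listed at exactly 0 RPM in both 409 libraries, 4 in 1 of the 409 libraries, and 20 were above 0 in both. Because 1 read is listed as 0.1 RPM in every library, a value of 0 stands for 0 reads. Csa2G317420 had 4.7 and 2.9 RPM in the 408 replicates against 0 and 0 RPM in the 409 replicates, and was at least 16.4-fold higher in 408. This bound sets the 408 mean against 0.232 RPM, the mean of the levels that 3 reads make in each 409 library. It takes the 408 mean as exact and covers counting error in line 409 only. It is therefore not built like the ratio intervals of the other genes. Among the 4 genes Csa2G317420 had the highest 408 level, with 99 reads over the 408 libraries and 0 in line 409.

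The other 3 genes at 0 were lower in line 408. Csa4G006160 had 2.2 and 4.2 RPM in the 408 replicates and 0 RPM in both 409 replicates, and was at least 13.8-fold higher in 408. Csa5G177700 had 2.1 and 3.0 RPM in line 408 and 0 RPM in both 409 replicates, at least 11.0-fold higher in 408. Csa3G403990 had 2.3 and 2.6 RPM in line 408 and 0 RPM in both 409 replicates, at least 10.6-fold higher in 408. All 4 bounds are set by the 408 level and the depth of the 409 libraries, so their order says nothing about how far each gene was reduced in line 409. Among all listed genes, 161 were at 0 in both 409 libraries, of which 7 had at least 1 RPM and 0 had at least 10 RPM in both 408 libraries. All 161 were above 0 in both 408 libraries, and 0 of the listed genes were at 0 in all 4 libraries. The labels do not state which filter made the list, so genes with few or no reads may be missing from such counts.

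The genes at 0 in a single 409 library were Csa1G532350, Csa4G639110, Csa5G077230 and Csa5G648680, which were picked out after their values were seen. In each of them 409 replicate 2, the shallower 409 library, was the one at 0, and 409 replicate 1 had 0.2 to 0.4 RPM. In line 408 the first 3 had 2.1 to 3.1 RPM in replicate 1 and 2.8 to 6.4 RPM in replicate 2. Over all 20000 genes 379 were at 0 in 409 replicate 1 and 610 in 409 replicate 2. The part of depth in this order was not tested.

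Depth bore on the lines unequally. In the 408 libraries a gene of this group stood on 26 to 120 reads, and counting error alone was 19.6% of the value at the lowest level of 408 replicate 1 and 9.13% at the highest level of 408 replicate 2. In the 409 libraries it stood on 0 to 7 reads, and 7 reads, listed as 0.5 RPM, had a 95% Poisson interval of 0.205 to 1.05 RPM. Counting error was 37.8% of that highest 409 value. The 28 genes together had 1075 to 1081 and 1778 to 1797 reads in the 408 replicates and 93 to 106 and 53 to 62 reads in the 409 replicates, where the ranges reflect the rounding of the table to 1 decimal.

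Over the 24 genes with any reads in line 409, the ratio of the 408 mean to the 409 mean ran from 5.13 through a median of 17.8 to 43.0. The low ends of their counting intervals ran from 2.46 to 12.8. The limits of the choice alone set every ratio well above 1, so the intervals are given to show precision only. At 409 levels of 2 to 12 reads the size of a ratio was poorly fixed. The interval was 4.09 to 15.2 for Csa3G824850, with 12 reads in line 409. It was 12.5 to 475 for Csa6G109650, with 2 to 3 reads. PCR reads without molecular identifiers are not independent molecules, and the intervals cover neither this nor the spread between pools.

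Near the limits, the choice drew a line through a continuous range of values. Of the 28 genes, 4 had 0.5 RPM in a 409 library and 6 had under 2.2 RPM in a 408 library. Just outside, 3 genes with 408 values in the range reached 0.6 RPM in line 409. These were Csa6G421770, with 4.6 and 5.6 RPM in line 408 and 0.6 RPM in each 409 replicate, Csa3G017290, with 3.7 and 6.2 RPM in line 408 and 0.6 and 0.2 RPM in line 409, and Csa1G169420, with 2.5 and 3.5 RPM in line 408 and 0.6 RPM in each 409 replicate. Below the 408 limit, 16 genes within the 409 limit had a lower 408 value of 1.5 to under 2 RPM, among them Csa5G602120 at 1.9 and 4.1 RPM, Csa1G046820 at 1.9 and 3.4 RPM and Csa1G498810 at 1.9 and 2.9 RPM in line 408, with 0.1 to 0.5 RPM in line 409. Above the range there was a single gene, Csa3G829270, with 10.3 and 19.1 RPM in the 408 replicates and 0.1 RPM in each 409 replicate.

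The test of the lines across all genes was limma on log2(RPM + 1), with p-values adjusted over all 17391 genes that had at least 1 RPM in at least 2 libraries. All 28 genes entered it, since their 408 values ensured that they passed the filter. All 28 were called higher in 408 (limma, adjusted p = 0.0317 to 0.0335), beside 17.1% of all genes tested. The choice by the same contrast means that nothing can be read from this count. The value of 0.0317 was the smallest adjusted p of the whole limma fit. It was shared by many genes, so here and below it does not rank single genes. Their log2 differences, 408 minus 409, ran from 1.12 to 2.52 with a median of 1.94, against a median of 0.06 over all genes tested. On this scale the difference of a low gene is understated, and with a pseudocount of 0.1 the median was 3.76. For 2 against 2 libraries the smallest p of an exact permutation test is 0.333. The calls, of the 28 as of all other genes, were lost in fits without any 1 of the 4 libraries. Such fits leave a single library in a line. In them the median log2 difference of the 28 was 1.70 to 2.20.

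By the choice, both 408 libraries lay above both 409 libraries in all 28 genes, which was the case for 41.8% of the genes tested. The lower 408 value was at least 5.0 times the higher 409 value. How rare such genes were can be read from the 408 range itself. Of the 3013 genes at 2 to under 10 RPM in both 408 libraries, 28 or 0.929% had no 409 value above 0.5 RPM, 63 had their higher 409 value above 0.5 and up to 1 RPM, 290 above 1 and up to 2 RPM, and 2632, or 87.4%, above 2 RPM. Of the 2060 genes at no more than 0.5 RPM in both 409 libraries, the 28 made up 1.36%, and 74.9% were at no more than 0.5 RPM in both 408 libraries too. These 2 shares cover listed genes only, and genes without reads in any library are not on the list.

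With the lines exchanged, 4 genes met the same limits, against the 28. Csa5G348060 had 0.4 RPM in each 408 replicate and 6.2 and 8.0 RPM in the 409 replicates. Csa2G379360 had 0.3 and 0 RPM in line 408 and 6.9 and 2.5 RPM in line 409. The remaining ones were Csa2G285890, with 0.2 and 0.3 RPM in line 408 and 3.9 and 2.0 RPM in line 409, and Csa1G680120, with 0.1 and 0.3 RPM in line 408 and 2.3 RPM in each 409 replicate. None of the 4 was at 0 in both 408 libraries. The 4 genes made up 0.131% of the 3046 genes in the same range in both 409 libraries. The same limits gave 27 and 4 genes after median-of-ratios rescaling and 14 and 6 after quantile normalization. Without 1 library in the choice they gave 34 to 112 and 9 to 28 genes. No test was made of 28 against 4, since genes of 1 library are not independent of one another.

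The choice treated the replicates of a line alike, so the order of the replicates was free to vary. In 24 of the 28 genes, or 85.7%, the level in 408 replicate 2 was above 408 replicate 1, in 3 it was below, and in 1 both were equal. The median ratio of 408 replicate 2 to 408 replicate 1 was 1.44, with an interquartile range over genes of 1.18 to 1.84. Among the other 2985 genes at 2 to under 10 RPM in both 408 libraries, 48.2% were higher in replicate 2, with a median ratio of 1.00 (interquartile range 0.819 to 1.19). A ratio of at least 1.5 was found in 42.9% of the 28 genes and in 7.87% of the others. The deeper 408 library was replicate 2, with 13808000 reads beside 12496000 in replicate 1, and the part of depth or scaling in this order was not tested. Genes are not replicates and no p is given.

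Part of this order was shared by other genes that were higher in line 408. Of the 333 other genes in the same 408 range that were called higher in 408, 79.3% were above in 408 replicate 2, with a median ratio of 1.18. This set was chosen in part by its 408 values and is set beside the 28 only as a description.

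**Figure D2:**
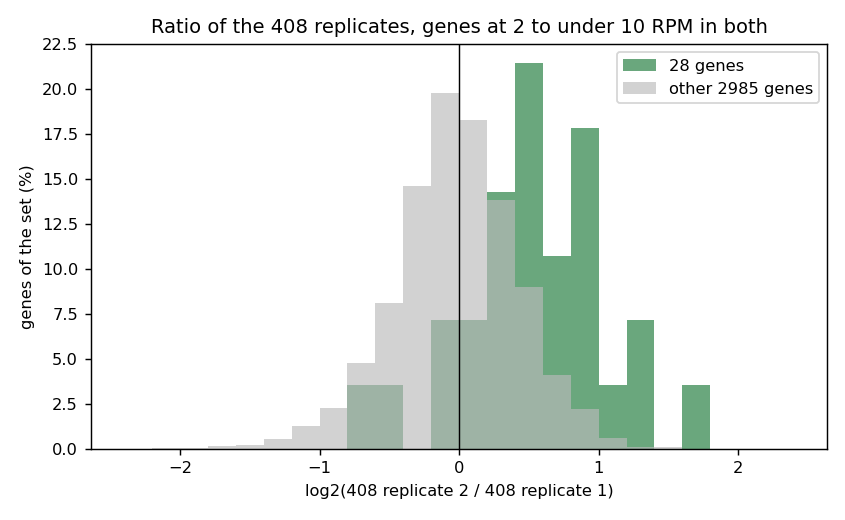
Distribution of log2(408 replicate 2 / 408 replicate 1) as the percentage of each set, for the 28 genes and for the other 2985 genes at 2 to under 10 RPM in both 408 libraries. The 28 lie mostly to the right of 0, at a median ratio of 1.44, and the others are centred on 0.

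The genes that differed most between the 408 pools were Csa6G109650, Csa6G190260 and Csa1G612320. Csa6G109650 had 2.1 and 6.4 RPM in the 408 replicates and 0.1 RPM in each 409 replicate, so that 408 replicate 2 was 3.05 times replicate 1. Csa6G190260 had 2.1 and 5.1 RPM in line 408 and 0.1 and 0.3 RPM in line 409, a ratio of the 408 replicates of 2.43. For all 3 the pools of 1 line differed by more than 2-fold, although both pools stayed above both 409 pools.

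The opposite order was rare. Csa2G317420 had 4.7 RPM in 408 replicate 1 and 2.9 RPM in replicate 2, a ratio of replicate 2 to replicate 1 of 0.617. Csa6G237590 had 3.1 and 2.2 RPM in the 408 replicates, a ratio of 0.710, with 0.1 and 0.2 RPM in the 409 replicates. The third, Csa3G182040, had a ratio of 0.952. In 408 replicates 1 and 2 Csa2G317420 stood on 59 and 40 reads and Csa6G237590 on 39 and 30 to 31. Csa3G182040 stood on 26 and 27 to 28 reads. Counting error bears on each of these ratios, and no interval was computed for them.

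Within line 409 ties were frequent. In 13 of the 28 genes 409 replicate 1 was above replicate 2, in 4 it was below and in 11 both were listed at the same value. As a share, 46.4% of the 28 were above in 409 replicate 1. Among the other 2985 genes of the 408 range it was 60.0%, with 96 tied. Among the 333 of these called higher in 408 it was 79.9%, with 15 tied. These other genes all had a 409 value above 0.5 RPM, so their shares are not like for like. Nearer in level were 1325 genes at no more than 0.5 RPM in both 409 libraries. Each was above 0 in at least 1 of these and in both 408 libraries, and 24 of the 28 were included. In 47.25% of the 1325, 409 replicate 1 was above, and 287 were tied. In 12 of the 28 genes, or 42.9%, 408 replicate 2 was the highest and 409 replicate 2 the lowest of the 4 libraries, and 35.1% of the other genes of the range had both replicates in that order within their lines. At 0 to 7 reads a difference between the 409 replicates was mostly not detectable in a single gene.

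The 409 libraries differed more in which genes they kept out of the group. Leaving 409 replicate 1 out of the choice gave 112 genes, so that 84 genes missed it through 409 replicate 1 alone. In that library these 84 had a median of 1.2 RPM, from 0.6 to 2.4 RPM, while their median was 0.3 RPM in 409 replicate 2 and 3.0 and 4.35 RPM in the 408 replicates. Leaving 409 replicate 2 out gave 35 genes, and the 7 that missed the choice through this library alone had a median of 0.8 RPM in it. The size of the group therefore depends most on 409 replicate 1. In line 408, 26 genes missed through replicate 1 alone, at a median of 1.35 RPM there, and 6 through replicate 2 alone, at a median of 1.45 RPM.

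**Figure D3:**
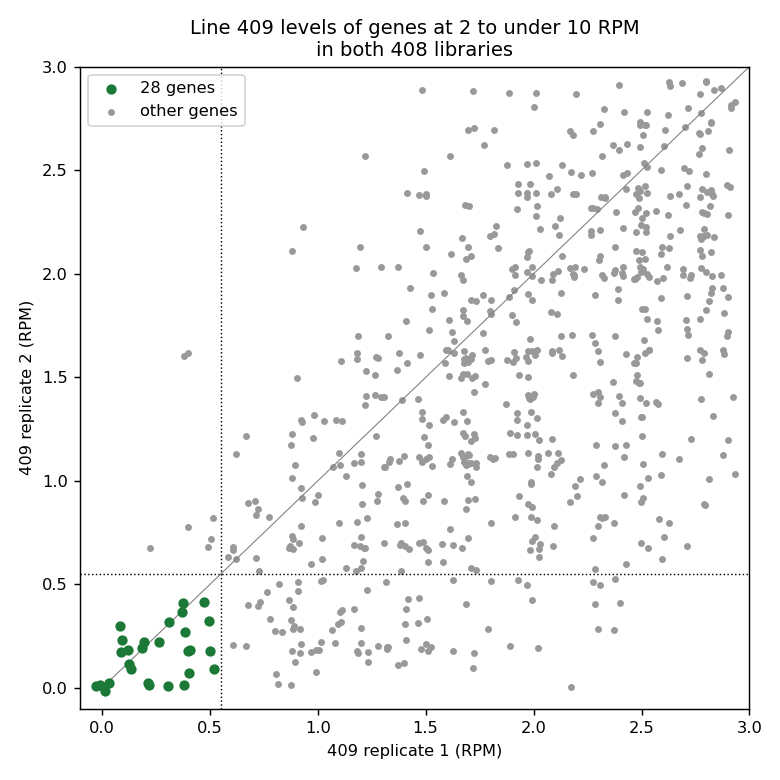
RPM in 409 replicate 1 (x axis) and 409 replicate 2 (y axis) of the genes at 2 to under 10 RPM in both 408 libraries that were under 3 RPM in both 409 libraries, with points moved slightly at random so that equal values can be seen. Dotted lines mark the limit of 0.5 RPM, the diagonal marks equal values, and the 84 genes to the lower right of the 28 are above the limit in 409 replicate 1 alone.

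The IDs carry a digit after Csa, read as the chromosome by the naming convention of these IDs, and a number read as the order along it. The 28 genes were spread over all 7 digits. Digit 6 had 6 genes, digits 3 and 5 had 5 each, digits 1 and 4 had 4 each, digit 7 had 3 and digit 2 had 1. As shares of the 28 these were 21.4% for digit 6 beside 16.6% of the listed genes, 17.9% for digit 5 beside 13.2%, 17.9% for digit 3 beside 20.9%, and 14.3% for digit 4 beside 12.0%. Digit 1 had 14.3% beside 14.6%, digit 7 had 10.7% beside 9.92%, and digit 2 had 3.57% beside 12.2%. Spread in proportion to the listed genes, digit 2 would have held 3.42 of the 28 and digit 6 would have held 4.66. When 409 replicate 1 was left out of the choice, digit 6 held 14 of 112 genes, or 12.5%, which is below its share of the listed genes.

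With 28 genes these shares are loosely fixed. The exact 95% binomial interval was 8.30% to 41.0% for digit 6 and 0.0904% to 18.4% for digit 2, and the share of listed genes lay inside the interval for each of the 7 digits. The intervals treat the 28 genes as independent draws, which genes of the same libraries are not. They are given to show precision only, and no test of the digits was made. The 3013 genes of the 408 range had 15.5% in digit 6 and 11.3% in digit 2, close to the shares of all listed genes. The group with UN in place of a digit, with 127 listed genes, held 0 of the 28, for which the same exact interval reaches up to 12.3%. Of the 4 genes with the lines exchanged, 2 were in digit 2 and none in digit 6.

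**Figure D4:**
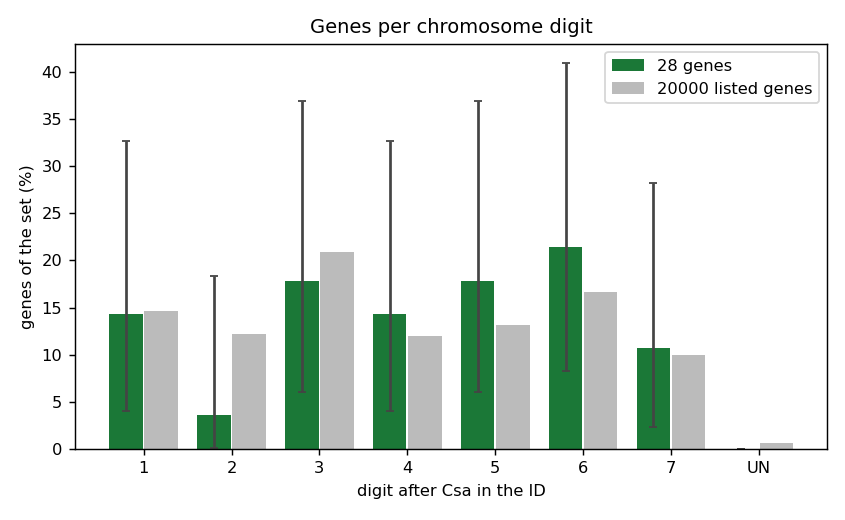
Percentage of the 28 genes and of the 20000 listed genes with each chromosome digit in the ID, with exact 95% binomial intervals on the 28 (none is drawn for UN, which held 0). For digits 1 to 7 the share of listed genes lies within the interval of the 28. The intervals treat the 28 genes as independent draws.

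Along the ID order the 28 genes did not stand side by side. Between neighbouring members of the same digit there were 21 intervals, with a median of 462 listed genes, from 27 to 1700. None was within 10 listed genes, and 2 were within 50. The closest pair was Csa4G006160, one of the genes at 0 in line 409, and Csa4G006470, which are 27 listed genes apart near the start of digit 4. The other close pair was Csa5G647320 and Csa5G648680, which are 32 listed genes apart near the end of digit 5. Csa5G648680 was picked out for this place and had 3.4 and 5.2 RPM in the 408 replicates, against 0.2 and 0 RPM in those of line 409, a ratio of means of 43.0 (interval 12.5 to 186), the highest of the 24 genes with reads in line 409.

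The genes listed directly before and after each member, 56 in all and none of them a member, were not part of the choice. Of these, 45 had enough reads to be tested, and 8 were called higher and 3 lower in 408 (limma, adjusted p under 0.05). These are 17.8% and 6.67% of those tested, beside 17.1% and 10.1% of all genes tested. The median log2 difference of the 45 was 0.10, against 0.06 over all genes. The share of called neighbours was thus near the background. The count of 8 depended on the fit. It was 0 when the fit lacked any 1 library or the filter on low values, 3 with the replicate number as a block and 14 with the crossed pairing of the replicates, which was chosen after seeing the data.

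The neighbours had a median of 22.8 RPM in line 408, above the level of the members. Csa5G523000, which follows the member Csa5G522990, was the single neighbour that was called and at least 4-fold higher on the log2(RPM + 1) scale. It had 18.6 and 18.4 RPM in the 408 replicates, against 2.5 and 0.6 RPM in those of line 409, and a log2 difference of 3.04 (limma, adjusted p = 0.0317). The member Csa5G522990 had 4.4 and 5.2 RPM in the 408 replicates and 0.2 RPM in each 409 replicate, a ratio of means of 24.0 (interval 9.35 to 78.7). Whether adjacent IDs share reads, as parts of 1 transcript unit or as near-identical copies may do, was not tested. On the other side, Csa6G109660, which follows the member Csa6G109650, had 77.8 and 47.4 RPM in the 408 replicates, against 157 and 203 RPM in those of line 409, and a log2 difference of -1.54 (limma, adjusted p = 0.0317). These neighbours were picked out after their values were seen.

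The remaining members had like values. Csa3G165080, Csa7G388370, Csa1G015690, Csa1G537590, Csa7G234150, Csa3G824850, Csa6G514800 and Csa6G052740 had 2.9 to 3.6 RPM in 408 replicate 1 and 3.5 to 6.4 RPM in 408 replicate 2, with 0.1 to 0.5 RPM in the 409 libraries. In each of these 8 genes 408 replicate 2 was above replicate 1. Their ratios of means ran from 7.67 for Csa3G824850 to 32.5 for Csa6G514800, whose intervals of 4.09 to 15.2 and 9.38 to 357 overlapped.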

How the data were processed

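The deposited table gives RPM values to 1 decimal. The submitters' processing notes name TopHat as the aligner. Its version, the build, the counting tool and whether strand was used are not stated in the labels or the header. Reads of opposite-strand or near-identical genes may therefore be shared. All 4 columns were matched to samples by name, and 0 were left unused. Each column sums to 1000000 within rounding.

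Depth was estimated from the steps of the RPM values up to 30 RPM, searched between 8000000 and 20000000 reads, and checked on simulated libraries. As 1 read is worth less than the rounding step, whole reads were not recovered and no count test was run; each value was turned into the range of reads it allows. Ratio intervals are exact binomial at 95%, from the reads of both libraries of a line added together and scaled by depth. They use the ends of these ranges that make the interval widest. The ratio of the added reads can differ somewhat from the ratio of means printed beside the interval. Line 408 was set against line 409 in limma 3.58.1 (R 4.3.3) on log2(RPM + 1), with a mean-variance trend, a filter of at least 1 RPM in 2 libraries, Benjamini-Hochberg adjustment and a threshold of 0.05, also tested on simulated data. The rest was done in Python 3.11.15 (scipy 1.17.1, pandas 2.3.3, numpy 2.4.6, matplotlib 3.10.9).

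The members, limits and tests were chosen with earlier results of these data known. Genes were named by rule: those at 0 in both 409 libraries, the 5 highest and 5 lowest in 408, the 3 largest and 3 smallest ratios of the 408 replicates, the 3 smallest and 3 largest adjusted p (ties by higher 408 mean), pairs within 10 listed genes, and up to 3 genes just outside each limit. Other genes are said to be picked after their values were seen, except the remaining members.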

Additional observations from a re-analysis of the deposited data

How the results depend on the processing

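All 28 genes were also called higher in 408 with pseudocounts of 0.1 and 0.5, without the trend and after median-of-ratios and quantile scaling. Beside them, 15.4% to 16.7% of all genes tested were called higher in these fits. As the same contrast made the choice, nothing can be read from the count of 28. Without the filter on low values 0 of the 28 and 0 of all genes were called higher by limma (28 and 4942 at an unadjusted p under 0.05; smallest adjusted p 0.0674). Leaving out 1 library called 0 to 0 of the 28 and 0 to 0 of all genes (28 and 2253 to 4155 at an unadjusted p under 0.05), in fits with fewer samples, where the spread of the single library left in a line is taken from the other line. The filter of 5 RPM leaves none of the 28 to test. The replicate number as a block called 26 of the 28 and 906 genes in all, against 2981 without it. Nothing in the labels says that the number marks a batch, and same-numbered deviations correlated at -0.48 over genes; the crossed pairing, chosen after seeing the data, called 28 and 5035. The median log2 difference of the 28 was 3.76 and 2.62 with pseudocounts of 0.1 and 0.5, and 1.70 to 2.20 without 1 library. Scaling moved the median of all genes from 0.06 to -0.01 and -0.07. In 180 fits of the 15 genes named by rule, 103 kept their call, 77 lost it and 0 changed direction.

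The number of genes followed the limits. It was 13 with a 409 limit of 0.2 RPM and 91 with 1 RPM, 101 and 15 with a 408 limit of at least 1 and 3 RPM, 29 with an upper limit of 20 RPM, 27 after median-of-ratios and 14 after quantile scaling, and 34 to 112 without 1 library. Genes with the lines exchanged numbered 0 and 29 with 409 limits of 0.2 and 1 RPM, 37 and 1 with 408 limits of 1 and 3 RPM, and 9 to 28 without 1 library. Genes at 0 in both 409 libraries numbered 7 and 0 with 408 limits of 1 and 3 RPM, and 5 without either 408 library. Without 409 replicate 1, 11 genes were at 0 in 409 replicate 2. Without 409 replicate 2, 4 genes were at 0 in 409 replicate 1. Quantile scaling leaves no exact 0. Members within 10 listed genes of the next numbered 6 with a 409 limit of 1 RPM, 7 with a 408 limit of 1 RPM, and 0 to 10 without 1 library. With a 408 limit of 3 RPM, 408 replicate 2 was higher in 100% of 15 genes, 409 replicate 1 in 66.7%, and digit 6 held 6.67%; with a 409 limit of 0.2 RPM, 409 replicate 1 was higher in 15.4% of 13 genes. The order of a line's replicates was not recomputed without 1 of them. In the other settings run the share above in 408 replicate 2 was 74.3% to 92.9%. The edgeR test on whole reads was not run, since the rounded values did not give whole reads. Depth limits values below about 0.245 RPM.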
